A study of Mus musculus with 16 samples.

Results

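The genes of the interferon regulatory factor (IRF) family were examined in 2 progenitor populations of mouse bone marrow. The 8 family genes Irf1, Irf2, Irf3, Irf4, Irf5, Irf7, Irf8 and Irf9 were chosen by name, out of 47937 gene identifiers that were counted. RNA was sequenced from MPP3 and MPP4 cells, multipotent progenitors that lean toward myeloid and lymphoid fates, respectively. Both were sorted as LSK+ CD150- CD48+ cells, and MPP4 cells were also Flt3+. The 8 C57BL/6 mice, 4 of each genotype, gave 1 library of each population, so that each of the 4 groups held 4 libraries (24823708 to 48703193 counts per library).

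Mice labelled WT were Ebf1fl/fl Tie2Cre+/+ and 11 to 12 weeks old, and mice labelled KO were Ebf1fl/fl Tie2Cre +/cre and 9 to 11 weeks old. Each genotype had 2 females and 2 males. Tie2Cre is a Cre recombinase under the promoter of Tek (Tie2), which acts in endothelium and blood stem cells, and Ebf1 is the gene of a factor that sets up B cell identity. The series description gives the transgene to both genotypes and unfloxed Ebf1 to the WT mice instead, so that effects of the alleles and of the transgene cannot be told apart. Ebf1 in MPP4 stood against its label: its level was 4.49 ± 1.21 CPM (the count scaled to a common normalised library size; mean ± SD, n = 4) in WT and 20.9 ± 3.70 CPM in KO, and reads were counted over the whole gene. In MPP3 it was 1.31 ± 0.986 CPM in WT and 0.792 ± 0.973 CPM in KO, with overlapping libraries. Cd79a, a B cell gene that EBF1 is known to activate, was at 1.74 to 3.45 CPM in MPP3 WT and 0.0261 to 0.661 CPM in MPP3 KO, and at 1.59 to 7.27 CPM in MPP4 WT and 0 to 0.96 CPM in MPP4 KO. Only its MPP4 WT libraries brought it past the filter on low counts, so no test of it is given. The libraries are named by their labels throughout. Of the gate's genes, Kit, Ly6a, Cd48 and Flt3 had at least 749 counts in each of the 16 libraries, and Slamf1, which encodes the CD150 that sorted cells lack, had 7 to 116.

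IRF proteins share a DNA-binding domain that reads GAAA repeats, as found in the interferon-stimulated response element (ISRE). IRF3, IRF5 and IRF7 lie downstream of nucleic acid sensors and switch on interferon genes, while IRF9 is the DNA-binding part of the complex that answers type I interferon. IRF1 is induced by interferon and IRF2 can oppose it at shared sites. IRF4 and IRF8 act in cell fate, IRF8 in monocyte and dendritic cell progenitors and IRF4 in plasma cells and activated lymphocytes. Both bind composite ETS-IRF elements with PU.1.

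Of the 8 genes, 7 passed the filter for testing (a mean above 100 counts in at least 1 group), and Irf4 did not. Per length, as CPM per kilobase of exon, Irf3 led in MPP3 WT cells at 36.6 ± 5.16 (SD, n = 4), followed by Irf1 at 27.1 ± 0.677 and then by Irf2, whose libraries ranged from 16.5 to 19.4. Irf9 (16.6 ± 1.58), Irf8 (12.6 ± 2.12), Irf5 (9.92 ± 0.870) and Irf7 (9.18 ± 1.88) came next. The ranges of Irf2 and Irf9, of Irf8 and Irf5, and of Irf5 and Irf7 overlapped, and the other neighbours in that order stood apart. In MPP3 KO cells Irf3 again stood first (34.6 ± 3.20 CPM per kilobase), and Irf8 had the third place with 23.2 ± 7.75, its range overlapping those of Irf1 and Irf9. In MPP4 WT cells Irf3 (39.4 ± 2.89), Irf8 (35.7 ± 7.88) and Irf1 (34.3 ± 2.11) led, each overlapping the next. In MPP4 KO cells Irf8 was first with 60.7 ± 9.64 CPM per kilobase, its lowest library (52.4) above the highest Irf3 library (43.2). Irf4 was last in every group, with a mean of 0.17 CPM per kilobase or less.

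Irf8 (ENSMUSG00000041515) lies on chromosome 8 of GRCm38 (mm10), from 120736358 to 120756694 on the plus strand. The others lie on chromosome 11, 53770014 to 53778374 (Irf1), chromosome 8, 46739732 to 46847458 (Irf2), chromosome 7, 44997648 to 45002848 (Irf3), chromosome 13, 30749226 to 30766976 (Irf4), chromosome 6, 29526625 to 29541871 (Irf5), chromosome 7, 141262706 to 141266481 (Irf7), and chromosome 14, 55603571 to 55610030 (Irf9), all on the plus strand but Irf7. The exons of Irf8 share no base with another annotated gene, and nor do those of Irf2 and Irf4. The exons of the other 5 members overlap another gene by 1.19% (Irf7 with Phrf1) to 14.1% of their bases (Irf5 with Tnpo3). Strand use in counting was not stated, so reads in those bases could belong to either gene.

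The promoters were read because the family is regulated partly at its own genes: interferon gamma signals reach GAS elements, and IRF9 acts through the ISRE. The 250 bases before the start in RefSeq (GRCm38.p6) were searched on both strands for the GAS letters (TTC, then 3 bases of any kind, then GAA), the ISRE core (GAAA, 2 bases, GAAA), the ETS-IRF element (GGAA, 2 bases, GAAA) and the EBF letters (TCCC, 2 bases, GGGA). The 8 genes had 11 such windows. The Irf8 window chr8:120736108-120736357 (plus strand) is printed because Irf8 differed most between the groups, and 29 to 45 bases around the matches in Irf1 (chr11:53769764-53770013, plus strand) and Irf2 (chr8:46739495-46739744, plus strand) are printed to compare with it. Capitals mark the matches.
Irf8: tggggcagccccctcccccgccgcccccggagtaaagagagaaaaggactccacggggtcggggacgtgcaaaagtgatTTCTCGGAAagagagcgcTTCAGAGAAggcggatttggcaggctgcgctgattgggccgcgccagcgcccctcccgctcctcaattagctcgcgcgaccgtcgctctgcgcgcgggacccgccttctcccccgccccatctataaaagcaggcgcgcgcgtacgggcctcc
Irf1: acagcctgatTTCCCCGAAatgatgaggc
Irf2: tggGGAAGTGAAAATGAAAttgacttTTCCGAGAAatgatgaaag

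The Irf8 window holds 2 GAS matches, which begin 171 and 153 bases before the start, and Irf1 holds 1 that begins 90 bases before it. The Irf2 window holds an ETS-IRF match and an ISRE match, which share 4 bases, and then a GAS match. GAS letters occur in 7.02%, ISRE letters in 2.98%, ETS-IRF letters in 2.3% and EBF letters in 0.779% of the 32851 mouse promoter windows of this length. None of these letters was found in the windows of Irf3, Irf4, Irf5, Irf7 and Irf9 or in the second windows of Irf1 and Irf8, and the EBF letters were in none of the 11.

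**Figure D1:**
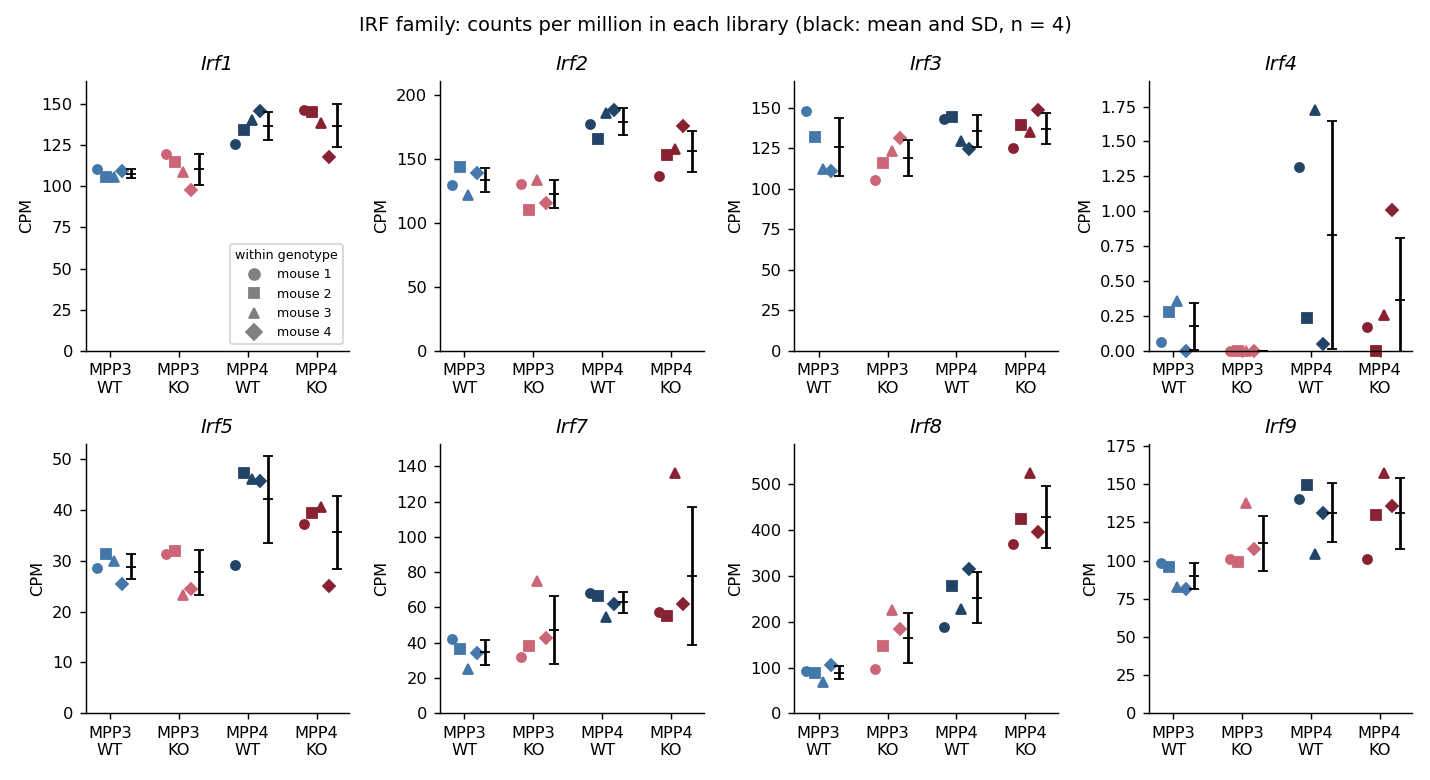
Level of each IRF gene in each of the 16 libraries (vertical axis, CPM from 0; horizontal axis, the 4 groups); the shape of a point gives the mouse number within a genotype, and the black mark is the mean with its SD (n = 4). Irf8 spans from 69.2 CPM in its lowest MPP3 WT library to 524.8 CPM in its highest MPP4 KO library, and the MPP4 KO library of mouse 3 stands alone for Irf7 at 136.4 CPM.

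The first comparison asked how the family differed between the populations. In WT mice, 6 of the 7 tested members were lower in MPP3 than in MPP4, where 8.33% of all 11831 genes tested were lower (edgeR's quasi-likelihood test, Benjamini-Hochberg FDR under 0.1). In KO mice 3 of the 7 were lower, against 9.18% of all genes. No member was higher in MPP3 in either genotype, where 6.8% and 8.71% of all genes were. As these were bulk samples, fewer expressing cells and less RNA per cell cannot be told apart.

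Irf8, the monocyte and dendritic lineage factor, differed most. It stood at 92.8, 89.1, 69.2 and 105.2 CPM in MPP3 WT mice 1 to 4, and at 188.1, 277.2, 226.6 and 314.6 CPM in the MPP4 cells of the same mice. The MPP3 and MPP4 libraries did not overlap, and the fitted difference was −1.498 ± 0.217 on the log2 scale (SE; FDR = 0.000147). In KO mice Irf8 was at 97.8, 147.3, 226.3 and 184.5 CPM in MPP3 and at 369.8, 423.7, 524.8 and 394.6 CPM in MPP4. Again every MPP3 library lay below every MPP4 library, with a difference of −1.39 ± 0.21 (edgeR, FDR = 0.00027). Within a mouse, the MPP3 level was between 0.264 and 0.494 of the MPP4 level in all 8 mice. Libraries separated in this way, with MPP3 lower, for 8.29% of all genes in WT and 8.6% in KO.

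Irf1, an interferon-induced activator, was lower in MPP3 in both genotypes with a smaller difference. Its MPP3 WT libraries held 110.8, 105.5, 105.5 and 109.4 CPM, and its MPP4 WT libraries 126.0, 134.4, 140.2 and 145.6 CPM. These did not overlap, and the log2 difference was −0.34 ± 0.08 (edgeR, FDR = 0.00863). In KO mice the libraries overlapped, at 119.8, 114.8, 109.0 and 98.0 CPM in MPP3 and 146.5, 145.1, 138.7 and 117.7 CPM in MPP4, with a log2 difference of −0.31 ± 0.08 (edgeR, FDR = 0.0142). Each of the 8 mice had less Irf1 in MPP3, at 0.752 to 0.879 of its own MPP4 level.

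Irf7, which amplifies type I interferon, stood at 42.4, 36.7, 25.3 and 34.2 CPM in MPP3 WT and at 68.2, 66.8, 54.9 and 62.1 CPM in MPP4 WT. The groups did not overlap, and the log2 difference was −0.86 ± 0.29 (edgeR, FDR = 0.0658). This call was lost, with FDR values of 0.106 to 0.213, without 1 of the MPP3 WT libraries 2, 3 or 4 or 1 of the MPP4 WT libraries 1, 2 or 4, or without both libraries of mouse WT1 or of mouse WT3. In KO mice Irf7 was at 31.8, 38.4, 75.1 and 42.8 CPM in MPP3 and at 57.5, 55.4, 136.4 and 61.9 CPM in MPP4. The difference of −0.73 ± 0.29 did not pass the threshold (edgeR, FDR = 0.113). The libraries of mouse KO3 lay apart in both populations, and without both of them the difference was −0.63 (edgeR, FDR = 0.023). Without 1 KO library at a time it ran from −1.045 (without the MPP3 library of KO3, FDR = 0.0199) to −0.309 (without the MPP4 library of KO3, FDR = 0.473), and it also passed without 1 of the MPP4 libraries of KO1, KO2 or KO4 (FDR = 0.0866 to 0.0963). In all 8 mice MPP3 cells held 0.461 to 0.694 of the MPP4 level.

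Irf9 was lower in MPP3 WT (98.2, 95.8, 83.0 and 81.7 CPM) than in MPP4 WT (140.3, 149.4, 104.5 and 131.5 CPM), by −0.55 ± 0.14 on the log2 scale (edgeR, FDR = 0.0154). The WT libraries did not overlap. In KO mice the levels were 101.3, 98.9, 138.0 and 107.5 CPM in MPP3 and 100.8, 129.6, 157.6 and 135.8 CPM in MPP4. These overlapped, and the difference of −0.23 ± 0.14 was not called (edgeR, FDR = 0.339). The population difference was not shown to depend on the genotype, with an interaction of 0.32 ± 0.20 (edgeR, FDR = 1). With the mouse as a replicate block it was 0.32 ± 0.11 and had an unadjusted p under 0.05, as did 5.88% of all genes in that fit, and did not pass adjustment (edgeR, FDR = 0.766).

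Irf2, the repressor at IRF1 sites, was lower in MPP3 by −0.42 ± 0.09 in WT (edgeR, FDR = 0.003) and −0.35 ± 0.09 in KO (FDR = 0.0113). The libraries did not overlap in either genotype: MPP3 WT ranged from 121.9 to 143.4 CPM and MPP4 WT from 165.0 to 188.0 CPM, and MPP3 KO ranged from 110.1 to 133.3 CPM and MPP4 KO from 136.3 to 175.8 CPM. Irf5, a factor downstream of Toll-like receptors, was lower in MPP3 WT (25.4 to 31.3 CPM) than in MPP4 WT (29.2 to 47.3 CPM), by −0.54 ± 0.17 (edgeR, FDR = 0.0535). That call was lost without MPP3 WT library 4 or without MPP4 WT library 2, 3 or 4 (FDR = 0.131 to 0.143), and without both libraries of mouse WT3 (FDR = 0.199). In KO mice the Irf5 difference was −0.36 ± 0.17 and was not called (edgeR, FDR = 0.204). Irf3, the sensor-activated factor present in resting cells, passed in neither genotype, with differences of −0.10 ± 0.10 in WT (edgeR, FDR = 0.612) and −0.20 ± 0.10 in KO (FDR = 0.205).

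The 2 libraries of a mouse deviated together from their group means over all genes, so the mouse was also fitted as a replicate block. With the block, 6 members were called lower in MPP3 in WT and 7 in KO, against 13.4% and 14.5% of all genes. The additional KO calls were Irf3 (−0.21 ± 0.06, edgeR with the mouse as a replicate block, FDR = 0.0223), Irf5 (−0.35 ± 0.14, FDR = 0.0946), Irf7 (−0.69 ± 0.09, FDR = 8.33e-05) and Irf9 (−0.23 ± 0.08, FDR = 0.0484).

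**Figure D2:**
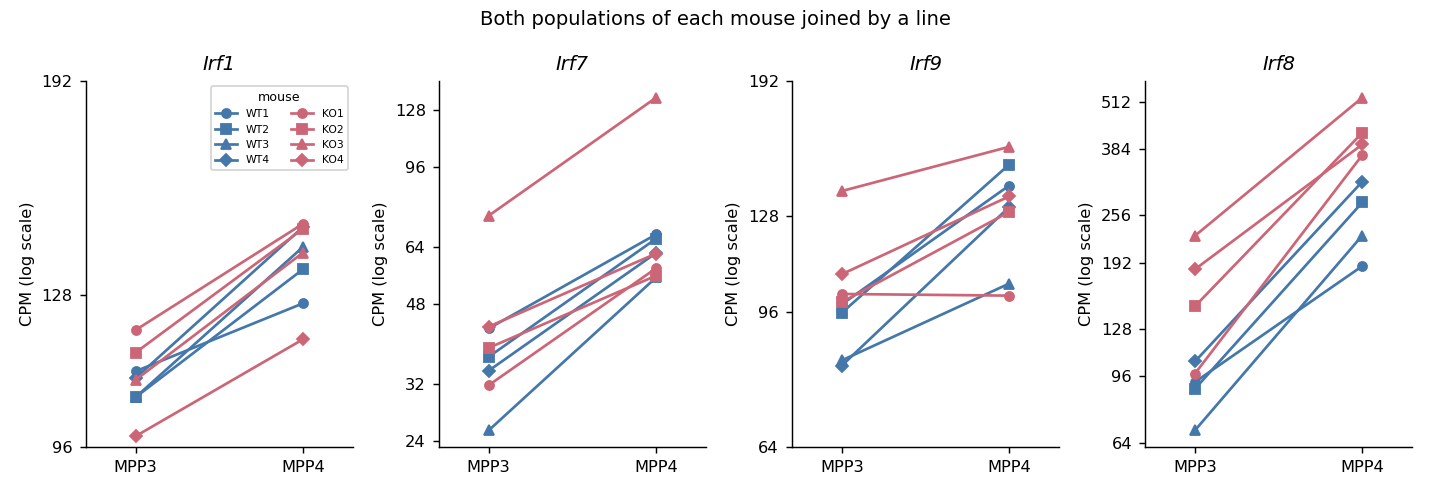
Levels of Irf1, Irf7, Irf9 and Irf8 (vertical axis, CPM on a log scale that differs between panels) in MPP3 and MPP4, with a line joining both libraries of a mouse; WT mice are blue and KO mice red. The lines of Irf1, Irf7 and Irf8 rise toward MPP4 in all 8 mice, those of Irf9 in 7 of 8, and mouse KO3 has the highest Irf7, Irf8 and Irf9 in both populations.

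Irf4 was at the edge of detection. It gave 2, 7, 15 and 0 counts in MPP3 WT mice 1 to 4, and 0 counts in all 4 MPP3 KO libraries, which allows up to 0.0751 to 0.0992 CPM per library (3 counts; counting error only). In MPP4 it gave 56, 7, 84 and 2 counts in WT mice and 6, 0, 7 and 37 counts in KO mice. Mice of the same group thus differed widely in MPP4, and WT and KO overlapped there. In a fit of all 26699 genes with at least 1 count, Irf4 had an FDR of 0.551 (MPP3) and 0.805 (MPP4) between genotypes, and of 0.468 between populations in WT (edgeR). Between populations in KO the FDR was 0.0588, lower in MPP3, where 6.97% of the genes in that fit were called. That value set 0 counts in MPP3 against MPP4 libraries of which KO4 held most counts, and without library KO4 the FDR was 0.155 (edgeR). Plasma cell markers, the cell type in which Irf4 is best known, summed to 480 to 1566 CPM in MPP3 WT, 309 to 680 CPM in MPP3 KO, 1359 to 1460 CPM in MPP4 WT and 1293 to 1671 CPM in MPP4 KO. From 0 to 7 of these 12 markers were at 0 in a library, among them Igkc in 6 libraries, Igha in 8 and Ighg1 in 15. Ighm, which encodes the heavy chain of IgM, made up much of the sum, at 193.9 to 796 CPM in MPP3 WT and 1079 to 1169 CPM in MPP4 WT. Igkc and Jchain, which encode the kappa light chain and the joining chain, ran the other way, with Igkc at 67.4 to 379.4 CPM in MPP3 WT and 1.08 to 17.3 CPM in MPP4 WT (5.35 ± 1.58 on the log2 scale; edgeR, FDR = 0.0371). Of the 8 plasma cell markers tested, 2 were called higher and 2 lower in MPP3 in WT, and 1 higher and 3 lower in KO. Of all genes, 15.1% were called in WT and 17.9% in KO. For Jchain in WT, only MPP3 exceeded the filter (mean counts of 2307.5, and 64.8 in MPP4). For Igkc in KO the same held (576.5 and 1.5), so higher levels in MPP3 were favoured in both. Igkc in MPP3 KO had a median of 0 CPM and a maximum of 60.96 CPM. Mzb1, called lower in KO, exceeded the filter in neither population (10.0 and 73.8). The part of such cells in the Irf4 counts was not tested.

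The second comparison asked whether the family differed between KO and WT mice. No member was called in either population by edgeR, where 0.0676% of all genes tested were called in MPP3 and 0.0169% in MPP4. At an unadjusted p under 0.05 the test had 2 members in MPP3 (Irf8 and Irf9) and 2 in MPP4 (Irf8 and Irf2), as it had 10.5% and 12.8% of all genes. DESeq2's Wald test called Irf8 higher in KO in both populations and no other member, against 0.862% of all genes called higher in MPP3 and 1.29% in MPP4.

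In MPP3 the fitted Irf8 level in KO was 1.84 times that in WT, a log2 difference of 0.88 ± 0.21 that passed in DESeq2 and not in edgeR (edgeR, FDR = 0.164; DESeq2, FDR = 0.0225). The ranges overlapped by KO library 1, at 97.8 CPM, against 105.2 CPM in WT library 4. Without that KO library the difference was 1.06 and passed (edgeR, FDR = 0.025). In MPP4 it was 1.70 times that in WT, a log2 difference of 0.77 ± 0.21 (edgeR, FDR = 0.182; DESeq2, FDR = 0.0595). There every KO library exceeded every WT library, as was so for 2.83% of all genes. Without mouse KO3 the differences were 0.68 in MPP3 and 0.66 in MPP4 (edgeR, FDR = 0.368 and 0.21). Both populations came from the same mice, so the 2 comparisons are not independent of each other.

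The libraries were also read for markers of monocytes and dendritic cells. Of the 7 such markers tested, none was called between genotypes in either population, 6 had a difference above 0 in MPP3 and 7 in MPP4, and the smallest FDR was 0.147 and 0.11 (edgeR). At an unadjusted p under 0.05 there were 5 and 3 of the 7, beside 10.5% and 12.8% of all genes. All 10 marker genes summed to 154 to 308 CPM in MPP3 WT and 257 to 623 CPM in MPP3 KO, and to 146 to 169 CPM in MPP4 WT and 204 to 309 CPM in MPP4 KO, so that the genotypes overlapped in MPP3 and not in MPP4. At most 2 of the 10 were at 0 in a library, most often Cd209a, a dendritic cell lectin (6 libraries), then Fcgr1 (2) and Itgax (1). Between populations the sum went the other way from Irf8, the MPP3 library being above the MPP4 library in 7 of 8 mice. F13a1 (30.2 to 101.9 CPM in MPP3 WT and 18.6 to 21.3 CPM in MPP4 WT) and Ly6c2 (32.0 to 92.2 and 5.57 to 6.84 CPM) carried much of that difference. The 7 tested markers were called in both directions. In MPP3, 3 were higher and 2 lower in WT, and 4 were higher and 3 lower in KO. Of all genes, 15.1% were called between populations in WT and 17.9% in KO. Itgax, among those lower in both genotypes, passed the filter only through MPP4, so a lower level in MPP3 was favoured. Markers of plasmacytoid dendritic cells, which also use IRF8, summed to 261.3 to 302.1 CPM in MPP3 WT, 256.1 to 292.1 CPM in MPP3 KO, 456 to 526.6 CPM in MPP4 WT and 508 to 552 CPM in MPP4 KO, and Klk1 of that list was at 0 in all 16 libraries. Between genotypes none of the 6 tested was called, with 1 at an unadjusted p under 0.05 in MPP3 and 3 in MPP4 (edgeR). Of these, Cox6a2 was at 16.5 to 22.5 CPM in MPP4 WT and 28.1 to 53.0 CPM in MPP4 KO (0.92 ± 0.31; edgeR, FDR = 0.232), and Bst2 at 107.2 to 134.9 and 133.7 to 183.2 CPM (0.32 ± 0.11, FDR = 0.232). Bst2 is also 1 of the interferon-stimulated genes tested below. Only 3 of the 6 had a difference above 0 in MPP4. The MPP4 KO libraries of Ccr9 (8.007 to 11.56 CPM) all lay below its MPP4 WT libraries (12.64 to 14.95 CPM). Spib had a mean of 2.401 CPM in MPP4 WT and 0.5084 CPM in MPP4 KO. It passed the filter only through MPP4 WT, so a lower level in KO was favoured. Siglech, a defining marker that did not pass the filter, had 2 to 71 counts in MPP4 WT and 67 to 107 in MPP4 KO. The part of such cells in the Irf8 result was not tested.

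Among the interferon-induced members, Irf9 was higher in all 4 MPP3 KO libraries than in all 4 MPP3 WT libraries, as was so for 2.16% of all genes. The gap was narrow, with the lowest KO library at 98.89 CPM and the highest WT library at 98.22 CPM. The log2 difference of 0.31 ± 0.14 did not pass adjustment (edgeR, FDR = 0.447), and was 0.19 without mouse KO3 (FDR = 0.756). In MPP4 it was −0.01 ± 0.14 (edgeR, FDR = 0.992). Irf7 differed by 0.44 ± 0.29 in MPP3 and 0.30 ± 0.28 in MPP4 (edgeR, FDR = 0.655 and 0.682). Without mouse KO3 those became 0.12 and −0.11, so that the sign in MPP4 rested on that mouse. Irf1 differed by 0.03 ± 0.08 and 0.01 ± 0.08, with 95% intervals of −0.12 to 0.19 in MPP3 and −0.15 to 0.16 in MPP4.

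Irf2 differed by −0.13 ± 0.09 in MPP3 and −0.20 ± 0.09 in MPP4, and was called in neither (edgeR, FDR = 0.672 and 0.327). Its MPP4 WT libraries held 176.8, 165.0, 185.5 and 188.0 CPM and its MPP4 KO libraries 136.3, 152.5, 157.6 and 175.8 CPM, which overlapped by 1 KO library. Irf3 and Irf5 lay between −0.24 and 0.02 in both populations, and neither was called. The effect of genotype was not shown to differ between populations for any member. The interaction had FDR = 1 for all 7 tested members (edgeR, where 0% of all genes were called), none of the 7 had an unadjusted p under 0.05, as 2.28% of all genes did, and DESeq2 called none. With the mouse as a replicate block 1 of the 7, Irf9, had an unadjusted p under 0.05, as given above.

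**Figure D3:**
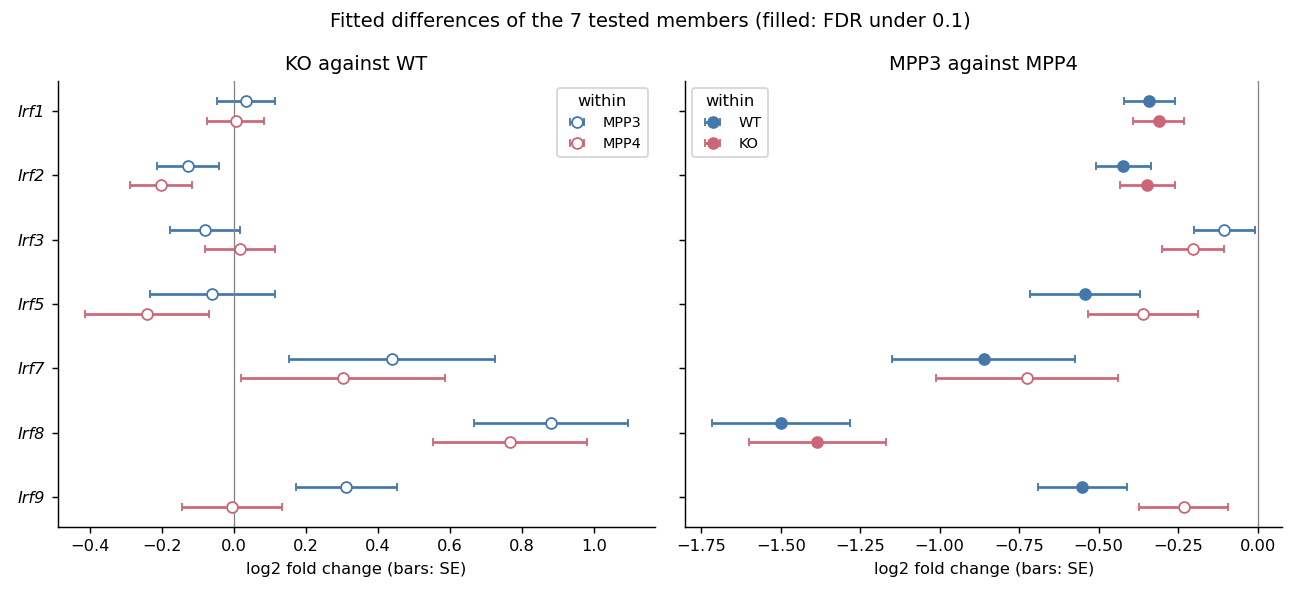
Log2 differences of the 7 tested members with their standard errors (horizontal axis), for KO against WT on the left and MPP3 against MPP4 on the right; filled points passed an FDR of 0.1 in edgeR. The points of Irf8 lie furthest from 0 in each panel (0.88 and 0.77 on the left, −1.498 and −1.385 on the right), and only the right panel has filled points.

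The lineage factor and the interferon-induced factors were also set against each other within each library, which leaves out the scaling between libraries. Irf8 had 1.34 to 2.39 times the CPM of Irf9 in MPP4 WT and 2.90 to 3.67 times in MPP4 KO. The ratio of Irf8 to Irf1 was 1.49 to 2.16 in MPP4 WT and 2.52 to 3.78 in MPP4 KO. Neither pair of ranges overlapped between genotypes. Both ratios share Irf8, whose MPP4 libraries did not overlap on their own, as for 2.83% of all genes with KO higher. They are therefore not separate results. Against Irf7 the ranges overlapped (2.76 to 5.06 in MPP4 WT and 3.85 to 7.65 in MPP4 KO), the KO library of mouse KO3 being lowest. In MPP3 the ratios to Irf9 were 0.833 to 1.29 in WT and 0.965 to 1.72 in KO, and overlapped. The MPP3 ratios to Irf1 (0.656 to 0.961 in WT and 0.816 to 2.075 in KO) and to Irf7 (2.189 to 3.071 and 3.014 to 4.311) overlapped as well. These ratios are not per length and serve only to compare groups.

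The libraries of mouse KO3, an 11-week-old female, stood apart for interferon genes in both populations. Irf7 there was 1.99 times the mean of the other KO mice in MPP3 and 2.34 times in MPP4, Irf9 was 1.35 and 1.29 times, and Irf8 was 1.58 and 1.32 times. Irf1 was 0.983 and 1.02 times that mean. Of 36 tested interferon-stimulated genes, 29 were highest in KO3 among the 4 KO libraries of MPP3, and 30 in MPP4, against 21.7% and 25.4% of all genes tested. Mouse KO3 was picked out after the data were seen, so these counts describe it and are not a test. The median of the 36 genes lay 0.65 above the WT mean in the MPP3 library of KO3 on the log2(CPM + 1) scale, and between 0.14 and 0.17 above it in the other 3. In MPP4 it lay 0.54 above in KO3 and between −0.05 and 0.13 in the other 3. Among WT mice WT3 was lowest, with medians of −0.15 in MPP3 and −0.25 in MPP4 against 0.01 to 0.12 in the other WT libraries, and 5 and 3 of the 36 genes above the WT mean. It also had the lowest Irf7 of the WT mice in both populations.

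**Figure D4:**
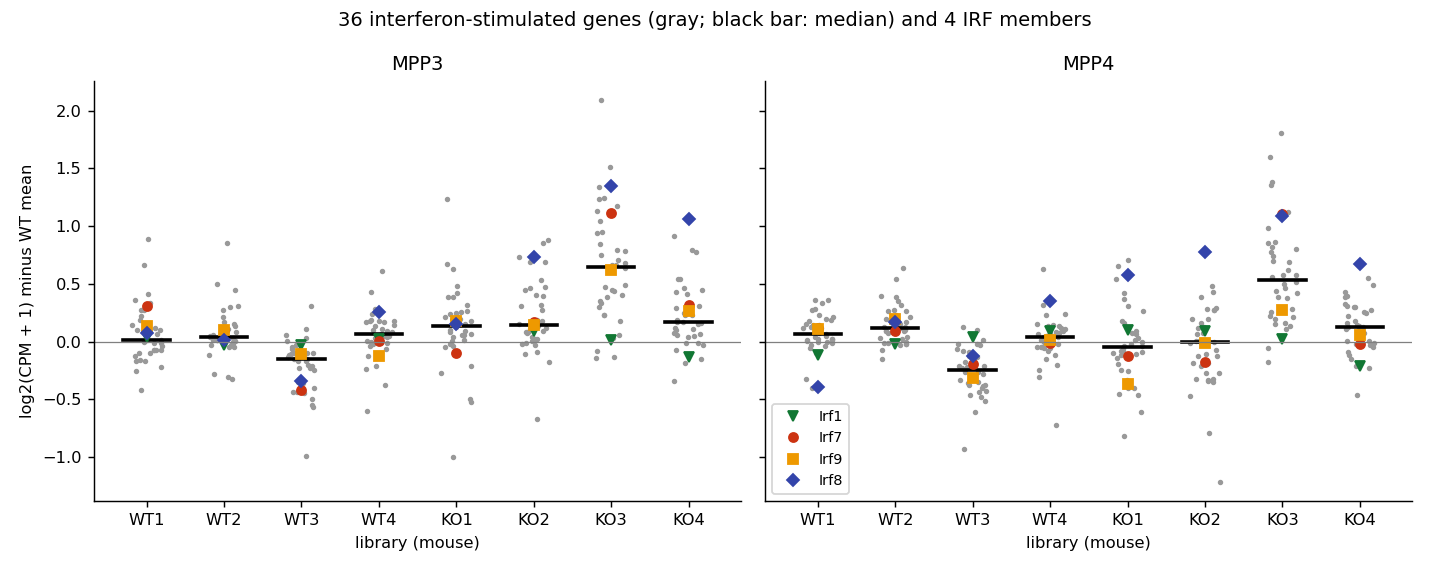
Difference of each library from the WT mean of its population on the log2(CPM + 1) scale (vertical axis), for 36 interferon-stimulated genes (gray points, black bar at their median) and for Irf1, Irf7, Irf8 and Irf9 (coloured). Both KO3 libraries have the highest medians (0.65 and 0.54) with Irf7 above them, while Irf1 lies near 0.

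The other genes of the pathway were counted by role. Of 6 interferon ligand genes none passed the filter, and Ifnb1, Ifna4 and Ifne had 0 counts in all libraries. Of 6 receptor genes 5 were tested and none was called for KO against WT by edgeR or DESeq2, or had an unadjusted p under 0.05. Between populations in WT, 3 were lower in MPP3 (Ifnar2, −0.67 ± 0.07; Il10rb, −0.34 ± 0.08; Ifnar1, −0.26 ± 0.09), beside 8.33% of all genes. In KO 2 were lower, Ifnar2 (−0.62 ± 0.07) and Il10rb, and Ifngr1, a chain of the interferon gamma receptor, was higher in MPP3 (0.27 ± 0.08), beside 9.18% and 8.71% of all genes. Ifnar2, a chain of the type I interferon receptor, was at 96.8 to 107.3 CPM in MPP3 WT and 152.1 to 167.4 CPM in MPP4 WT.

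Of the 8 receptor kinases and STATs, 5 had a difference above 0 in each genotype. In both genotypes 3 were called higher in MPP3 and none lower, beside 6.8% and 8.71% of all genes called higher. These were Stat5a (0.68 ± 0.08 in WT and 0.70 ± 0.08 in KO), Stat3 (0.35 ± 0.07 and 0.53 ± 0.07) and the kinase gene Jak1 (0.23 ± 0.06 and 0.37 ± 0.06). Of 19 sensors and activating kinases 17 were tested, and 2 were lower and 1 higher in MPP3 in each genotype, a share near the 15.1% and 17.9% of all genes called. Tlr7, a sensor of single-stranded RNA upstream of IRF5 and IRF7, was at 1.41 to 4.92 CPM in MPP3 WT and 18.1 to 27.6 CPM in MPP4 WT (−2.96 ± 0.32; edgeR, FDR = 6.86e-06). Tmem173, which encodes STING, upstream of IRF3, was lower by −0.59 ± 0.08, and Irak4, a kinase of Toll-like receptor signalling, was higher by 0.29 ± 0.09.

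Of 10 inhibitor genes 9 were tested. None was called between populations in WT by edgeR or DESeq2, with 1 at an unadjusted p under 0.05, as 22.1% of all genes had, and in KO Irf2bp1, a corepressor that binds IRF2, was lower in MPP3 (−0.41 ± 0.11, FDR = 0.021). Of 13 partner and upstream lineage factors 11 were tested, and Ets1 (−1.42 ± 0.20 in WT) and Ikzf1 (−0.58 ± 0.17 in WT), both lymphoid transcription factors, were lower in MPP3 in both genotypes. These 2 of 11 also lie near the 15.1% and 17.9% of all genes called. Between KO and WT mice edgeR called no gene of these 4 lists in either population. At an unadjusted p under 0.05 it had 2 kinases and STATs in MPP3 and 4 in MPP4, 0 and 2 sensors, 0 and 1 inhibitors, and 4 and 2 partners, beside 10.5% and 12.8% of all genes. DESeq2 called none of them in MPP3, and 3 kinases and STATs and 1 sensor in MPP4, beside 1.82% and 2.58% of all genes in either direction.

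Of the 16 monocyte and dendritic genes downstream of IRF8, 14 were tested, and 4 of the 10 monocyte and dendritic markers above also stand in this list. In WT, 4 were lower and 2 higher in MPP3, and in KO 6 were lower and 3 higher, beside 15.1% and 17.9% of all genes called. Ctss, a protease of antigen processing, was at 19.1 to 28.2 CPM in MPP3 WT and 65.9 to 83.3 CPM in MPP4 WT (−1.78 ± 0.14; edgeR, FDR = 2.9e-07). Cd74, the invariant chain of MHC class II, was lower by −1.48 ± 0.21. Flt3 was lower by −2.13 ± 0.10, and was used to sort MPP4. F13a1, a monocyte gene, went the other way, 1.90 higher on the log2 scale in MPP3 WT.

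For KO against WT, none of these 14 genes was called by edgeR, with 7 at an unadjusted p under 0.05 in MPP3 and 9 in MPP4, beside 10.5% and 12.8% of all genes. DESeq2 called 5 and 3, beside 1.82% and 2.58%. The median log2 difference of the 14 was 0.44 in MPP3 and 0.35 in MPP4, beside medians of −0.01 and −0.01 over all genes. Csf1r, the receptor for macrophage colony-stimulating factor, was at 26.8 to 37.4 CPM in MPP4 WT and 49.2 to 85.2 CPM in MPP4 KO (0.98 ± 0.20; edgeR, FDR = 0.11). Ly86, which encodes a partner of a Toll-like receptor homologue, was at 7.89 to 12.9 CPM in MPP4 WT and 27.9 to 34.5 CPM in MPP4 KO (1.498 ± 0.319; FDR = 0.11). Both were named after their values were seen.

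Of 37 interferon-stimulated genes 36 were tested. In each genotype 4 were lower and 1 higher in MPP3, which is 5 of 36 beside 15.1% of all genes called in WT and 17.9% in KO. The list had a median of −0.17 in WT and −0.12 in KO beside 0 and −0.01 over all genes. Ifi27l2a, an early interferon-response gene, was lower by −1.80 ± 0.34 in WT (edgeR, FDR = 0.00174) and −1.68 ± 0.33 in KO. Gbp2, a guanylate-binding protein, was higher by 0.42 ± 0.13 and 0.60 ± 0.13. Mx1, an antiviral GTPase, is among the 4 lower, but it passed the filter only through MPP4 (mean counts of 38.2 in MPP3 and 153.0 in MPP4 in WT, and 85.8 and 194.2 in KO), so a lower level in MPP3 was favoured. For KO against WT none was called by edgeR in either population, with 14 at an unadjusted p under 0.05 in MPP3 and 8 in MPP4, beside 10.5% and 12.8% of all genes. DESeq2 called 6 and 5, beside 1.82% and 2.58%. The median difference was 0.27 in MPP3 and 0.16 in MPP4, and 30 and 27 of the 36 lay above 0, beside medians of −0.01 and −0.01 over all genes. The MPP4 value rested on mouse KO3: without it the median was −0.01 with 17 of 36 above 0, and in MPP3 it was 0.14 with 29 above 0. Without mouse WT3 the medians were 0.21 and 0.09.

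With the mouse as a replicate block 24.8% of all genes were called between populations in WT and 28.3% in KO, against 15.1% and 17.9% without it. In that fit 19 interferon-stimulated genes were called in WT and 13 in KO, in place of 5 and 5. Of the genes downstream of IRF8 there were 10 and 11 in place of 6 and 9. The block gave 4 and 5 partner and lineage factors, 2 and 3 inhibitors, 4 and 5 kinases and STATs, 4 and 5 sensors, and 3 and 4 receptor genes, the 3 in WT being as many as without it.

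The tested genes whose levels were most like those of a member over the 16 libraries are given as a description, as all share libraries, populations and depth. By Pearson's r of log2(CPM + 1), Irf8 was most like Clec12a (0.968), Mpeg1 (0.953) and Selplg (0.952), genes of myeloid cells. Irf7 was most like Ifi27l2a (0.922), H2-T22 (0.92) and Gbp6 (0.908), and Irf9 was most like Xaf1 (0.915), Gbp6 (0.902) and Ifi44 (0.897). Irf1 was most like Kcng1 (0.955), Ptp4a3 (0.953) and Rgl1 (0.943). Among the members, Irf7 and Irf9 had the highest r (0.881 over 16 libraries and 0.771 after the group means were taken out), followed by Irf7 and Irf8 (0.841 and 0.682) and Irf1 and Irf5 (0.83 and 0.758). Irf1 and Irf9 had an r of 0.489 over the libraries and −0.329 within groups.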

How the data were processed

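Per the labels and the study's methods, the authors used STAR 2.7.3a for alignment to mm10 and featureCounts 2.0.0 for counting. The annotation release and strand use are not given in the sources used here. The authors deposited raw counts per gene for each population. Their normalised table was not used. Gene symbols, positions and exon lengths came from a GENCODE annotation of GRCm38, which matched 47224 of 47937 identifiers, and promoters from RefSeq.

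Genes whose mean exceeded 100 counts in at least 1 group were fitted with edgeR 4.0.16 in R 4.3.3 (TMM, quasi-likelihood F-test, 16 libraries, 1 mean per group). Benjamini-Hochberg FDR was taken over all 11831 genes, with calls under 0.1. The code was checked on simulated data. Depth was 24823708 to 48703193 counts per library; reads carried no molecular identifiers, so limits cover counting error only. The libraries of a mouse share its genotype, number, sex and age in the labels, and their deviations from group means correlated at 0.271 to 0.551, each library best with its own mouse, in all 8 mice. No batch was labelled.

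The members and lists were chosen with earlier results of these data known. Named were all members, the 3 genes most like Irf1, Irf7, Irf8 and Irf9, and up to 3 called genes of each pathway list per contrast with the smallest p, unless stated. Alternatives were DESeq2 1.42.0 (Wald test, or its size factors in edgeR), no filter, sex or age as a term, subsets of libraries, the mouse as a replicate block (fixed in edgeR, random in limma 3.58.1) and left-out libraries.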

Additional observations from a re-analysis of the deposited data

Results flagged for a closer look

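Among the 8 members and the summed interferon-stimulated genes in 4 groups, 35 sets of 4 libraries with a count were compared, and in 2 of them 1 library lay far from the other 3 (by Dixon's test at the 95% level). Chance gives about 1 in 20 such sets. Irf7 was at 136 CPM in the MPP4 KO library of mouse KO3 and at 55.4 to 61.9 CPM in the other 3, a gap of 0.919 of the range. Irf5 was at 29.2 CPM in the MPP4 WT library of mouse WT1 and at 45.6 to 47.3 CPM in the other 3, a gap of 0.91 of the range.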

How the results depend on the processing

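DESeq2's Wald test called 1 member, Irf8, in each KO against WT comparison in place of 0, and leaving out 1 library at a time gave 0 to 1 in MPP3. For MPP3 against MPP4 in KO, 3 members became 5 with sex as a term, 7 with the mouse as a replicate block, and 3 to 5 without 1 library at a time. In WT the count was 4 to 6 throughout, and the interaction stayed at 0. The random replicate block changed no KO against WT call. Of 679 alternatives for single genes, 615 kept their direction and their side of the threshold, 16 passed it newly and 13 fell short of it. The other 35 changed sign, all for effects that were called under no alternative. In MPP4, Irf1 (0.005) was −0.002 with all genes or the random replicate block, −0.093 with age, −0.03 without mouse WT1, 0 without mouse KO3 and −0.032 to 0.071 without single libraries. Irf9 (−0.005) was 0.006 with DESeq2 or its size factors, 0.095 with age, 0.03 without mouse WT1 and −0.106 to 0.101 without single libraries. Irf7 was −0.112 without mouse KO3, an alternative chosen after the data were seen, and −0.113 to 0.436 without single libraries, and Irf3 was −0.023 to 0.059, and −0.003 without mouse WT3, also chosen after the data were seen. In MPP3, Irf1 was −0.064 with age and −0.008 to 0.088 without single libraries, Irf3 was 0.007 without mouse WT1 and −0.138 to 0.007 without single libraries, and Irf5 was 0.014 without mouse KO3 and −0.128 to 0.016 without single libraries. Without single libraries the interaction was −0.037 to 0.083 for Irf1, −0.183 to 0.553 for Irf7 and −0.082 to 0.295 for Irf8. The cause of these changes was not tested.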
